A study of Mus musculus with 6 samples.

Results

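The aminoacyl-tRNA synthetase genes examined here are 36 named members, given by symbol. An interval was counted for a member when the transcript in its deposited annotation, or its nearest promoter, mapped to that gene, and all 36 symbols were found among 21738 nuclear protein-coding genes of the mouse annotation. By the compartment in which the enzymes are known to work, 18 members are cytosolic, 16 are mitochondrial, and 2 (Gars1 and Kars1) serve both compartments. The data are CUT&RUN profiles, in which an antibody directs a nuclease to its antigen and the released DNA is sequenced. Prospermatogonia, the germ cells of the fetal testis, were taken at E16.5 (embryonic day) from male C57BL/6 mice that were wild type for Taf4b and carried an Oct4-EGFP transgene used to sort the cells. The 6 libraries form 3 groups of 2 replicates: an antibody to TAF4b, part of the TFIID complex; one to H3K4me3, a histone mark of active promoters; and control IgG. The IgG pair was not analysed here, and no background was subtracted from the deposited values in the steps described here. Whether the deposited lists were called against IgG is not given in the sources used here. No group differed in genotype, age or sex. The labels do not say how many animals were pooled or whether replicates came from separate animals.

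Aminoacyl-tRNA synthetases join each amino acid to its transfer RNA, the step that gives the genetic code its meaning at the ribosome. Most amino acids have separate nuclear genes for a cytosolic enzyme (suffix 1) and a mitochondrial enzyme (suffix 2), the latter being imported to translate the few proteins encoded by mitochondrial DNA. Several cytosolic enzymes assemble into a multi-synthetase complex. Many are also known targets of ATF4, the transcription factor of the amino acid response. TFIID is the complex that recognises core promoters, and TAF4b is a variant of its TAF4 subunit that is enriched in germ cells.

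The TAF4b lists held 7861 peaks in replicate 1 and 848 in replicate 2, and the H3K4me3 lists held 64891 and 1730 regions. Members accounted for 23, 5, 55 and 3 of these intervals, of which 21, 4, 29 and 2 were classed as promoter-TSS. Read totals were not given, so depth is unknown. Each interval carries the authors' score, which ranged from 6.45 to 266.5 in TAF4b replicate 1 and from 40.5 to 7440.8 in TAF4b replicate 2. Scores are therefore compared only within a list, as a rank or as a percentile in which 100 is the highest. Of 8 germ cell markers, 5 had a TAF4b promoter peak in replicate 1 (Dazl, Ddx4, Mael, Dnd1 and Tdrd9), and 3 had an H3K4me3 promoter region there, against 24.9% and 48.6% of all protein-coding genes. For 4 Sertoli cell markers these counts were 0 and 3 (Sox9, Wt1 and Gata4), for 4 Leydig cell markers 1 (Nr5a1) and 0, for 3 endothelial markers 0 and 1 (Kdr), and for 2 blood markers 0 and 0. In the replicate 2 lists no germ cell marker was called, and the Sertoli cell marker Wt1, called by H3K4me3, was the single marker called. By position, H3K4me3 replicate 1 regions were found at 6 of 8 germ cell, 3 of 4 Sertoli cell, 1 of 4 Leydig cell, 2 of 3 endothelial and 1 of 2 blood markers, against 72.0% of all genes. The part of other cell types in the H3K4me3 intervals was not tested.

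The promoter DNA of 7 members is shown because it underlies the TAF4b replicate 1 peaks described next. Each stretch of 150 bases lies upstream of the reference start site, outside every exon of a coding gene, and is read 5′ to 3′ on the strand of the gene from GRCm39. The first 5 are cytosolic enzymes: Iars1 (chr13:49835426-49835575, plus strand), which had peaks in both TAF4b lists; Tars1 (chr15:11399776-11399925, minus strand), with the joint highest replicate 1 score among peaks annotated to members; Tars3 (chr7:65294455-65294604, plus strand), marked in both H3K4me3 lists; and Cars1 (chr7:143153829-143153978, minus strand) and Farsa (chr8:85583460-85583609, plus strand), which hold an ETS match. Pars2 (chr4:106508116-106508265, plus strand) and Mars2 (chr1:55276186-55276335, plus strand) carried the highest and the lowest score among the mitochondrial enzymes. Of these bases 69, 140, 127, 123, 72, 143 and 122, in the order printed, lie inside the replicate 1 peak. Capitals mark matches, on either strand, to the consensus sequences counted at the end of the report.
Iars1: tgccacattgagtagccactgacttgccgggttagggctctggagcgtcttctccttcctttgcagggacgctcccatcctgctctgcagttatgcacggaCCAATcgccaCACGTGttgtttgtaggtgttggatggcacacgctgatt
Tars1: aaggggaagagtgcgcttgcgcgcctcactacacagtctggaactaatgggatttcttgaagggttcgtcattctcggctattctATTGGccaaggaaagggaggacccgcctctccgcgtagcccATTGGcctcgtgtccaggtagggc
Tars3: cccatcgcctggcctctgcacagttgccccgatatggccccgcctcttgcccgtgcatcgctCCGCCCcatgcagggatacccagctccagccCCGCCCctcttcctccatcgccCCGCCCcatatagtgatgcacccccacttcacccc
Cars1: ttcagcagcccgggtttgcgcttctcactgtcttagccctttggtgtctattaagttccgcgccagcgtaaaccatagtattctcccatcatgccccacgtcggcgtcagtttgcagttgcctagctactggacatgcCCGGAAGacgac
Farsa: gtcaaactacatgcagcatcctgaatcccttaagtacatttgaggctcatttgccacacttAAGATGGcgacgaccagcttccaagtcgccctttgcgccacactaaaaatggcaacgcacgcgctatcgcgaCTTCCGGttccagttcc
Pars2: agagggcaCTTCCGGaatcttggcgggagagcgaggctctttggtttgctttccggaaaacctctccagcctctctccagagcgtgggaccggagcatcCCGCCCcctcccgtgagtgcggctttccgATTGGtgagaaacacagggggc
Mars2: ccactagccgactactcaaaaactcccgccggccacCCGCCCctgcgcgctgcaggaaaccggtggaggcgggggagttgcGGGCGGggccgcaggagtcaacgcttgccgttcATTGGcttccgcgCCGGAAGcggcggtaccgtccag
Positions are counted from the start site, with negative numbers upstream. Iars1 has a CCAAT box at -49 to -45 and an E box at -39 to -34. Tars1 has CCAAT boxes at -89 to -85 and -48 to -44. Tars3 carries 3 GC boxes and no other match. The ETS match of Cars1 lies at -13 to -7 and that of Farsa at -17 to -11, and Farsa also has a YY1 match at -89 to -83. Pars2 and Mars2 hold the same kinds of match. Pars2 has a CCAAT box at -41 to -37, a GC box at -70 to -65 and an ETS match at -161 to -155. Mars2 has a CCAAT box at -36 to -32, GC boxes at -69 to -64 and -114 to -109, and an ETS match at -23 to -17.

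TAF4b peaks lay at most cytosolic synthetase promoters and at fewer mitochondrial ones. In replicate 1, 22 of 36 members had a TAF4b promoter peak (61.1%), against 24.9% of all protein-coding genes. They were 15 of 18 cytosolic enzymes (83.3%), 7 of 16 mitochondrial enzymes (43.8%) and 0 of 2 enzymes of both compartments. Replicate 2 called 4 members (11.1%), against 3.55% of all genes. These 4 were all cytosolic (22.2% of that class), and 0 of 16 mitochondrial enzymes had a promoter peak. The cytosolic share exceeded the mitochondrial share by 39.6 percentage points in replicate 1 and by 22.2 in replicate 2. Genes are not replicates and each list is 1 library, so no test was made of this difference. By the deposited assignment the difference was 0 when replicate 1 was cut to its 848 highest-scoring peaks. Lars1 and Tars1, with the highest scores among peaks annotated to members, rank 904, so no member remained. A peak at the start site of Yars1 that is annotated to S100pbp ranks 255 and stays within that cut.

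H3K4me3 was present at most promoters of either class. In replicate 1, 29 of 36 members (80.6%) had an H3K4me3 promoter region, against 48.6% of all protein-coding genes, made up of 16 of 18 cytosolic and 13 of 16 mitochondrial enzymes. When any region within 1000 bp of a start site was counted by position, this rose to 35 of 36, against 72.0% of all genes, and Tars2, the mitochondrial threonyl-tRNA synthetase, was the single member without one. H3K4me3 replicate 2 called 2 members, Iars1 and Tars3, which is 5.56% against 4.78% of all genes. Among members with an H3K4me3 replicate 1 promoter region, 13 of 16 cytosolic enzymes (81.2%) and 6 of 13 mitochondrial enzymes (46.2%) also had a TAF4b replicate 1 peak, against 39.3% of the 10567 genes with such a region. In TAF4b replicate 2 the counts were 3 of 16 and 0 of 13, against 5.82%. By this assignment the mitochondrial share in replicate 1 is thus nearer than the cytosolic share to the background of H3K4me3-marked genes. By position the mitochondrial share was 53.3% and the cytosolic share 88.9%, against 39.5% of all such genes.

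**Figure D1:**
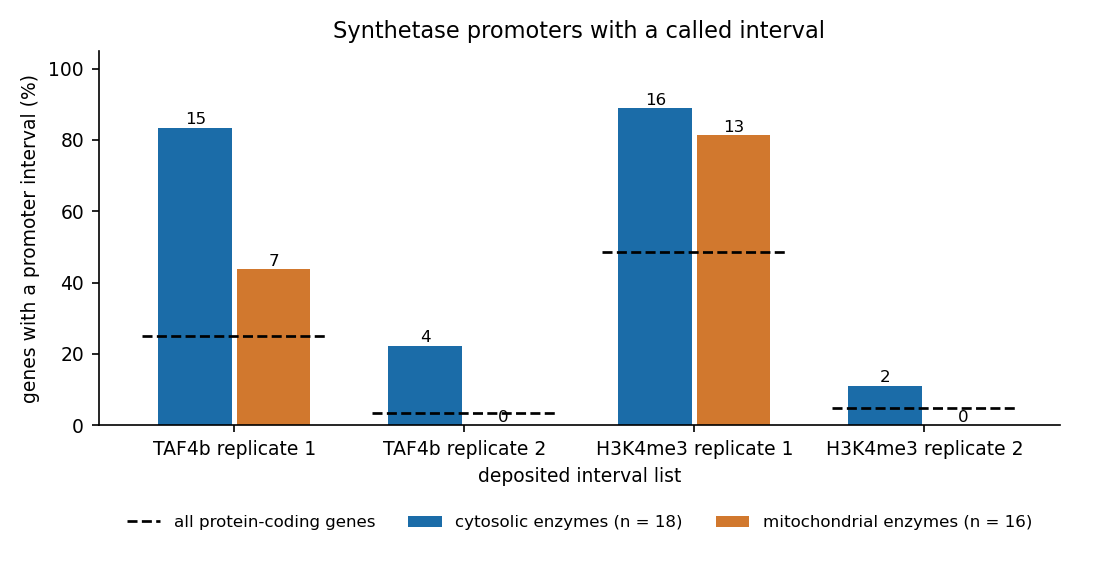
Share of synthetase genes with a promoter interval (%, vertical axis) in each of the 4 deposited lists, for 18 cytosolic and 16 mitochondrial enzymes. Numbers over the bars are genes and dashed lines give the share of all protein-coding genes; the TAF4b replicate 1 bars stand at 83.3% and 43.8%, while the H3K4me3 replicate 1 bars stand at 88.9% and 81.2%.

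Among peaks annotated to members, the highest TAF4b replicate 1 scores belonged to enzymes that charge leucine and threonine. The peak of Lars1 (leucyl-tRNA synthetase; GRCm39 chromosome 18, 42395260 to 42395402) and that of Tars1 (threonyl-tRNA synthetase; chromosome 15, 11399773 to 11399915) each scored 28.3, at deposited distances of -72 and -93 bp, where negative is upstream. The deposited distance is counted from the nearest annotated start site, which can belong to another transcript or a neighbouring gene. Aars1 (alanyl-tRNA synthetase; chromosome 8, 111760349 to 111760491) followed with 24.3 at -91 bp. Nars1, which charges asparagine, scored 23.8 at -5 bp (chromosome 18, 64649560 to 64649702). Iars1, which charges isoleucine, scored 20.8 at 2 bp (chromosome 13, 49835507 to 49835649). Cars1 (cysteine) and Tars3, a second cytosolic threonyl enzyme, also scored 20.8. These 7 scores all lie above the list's median of 14.9.

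The remaining cytosolic peaks were lower. Qars1, the glutaminyl enzyme, scored 18.9 and Rars1, the arginyl enzyme, 15.4. Eprs1, whose product charges both glutamate and proline, and Mars1, the methionyl enzyme, each scored 14.4. Farsa, one subunit of the phenylalanyl enzyme, scored 12.4. The 3 lowest were Vars1 (valine; 11.9; chromosome 17, 35219817 to 35219959), Hars1 (histidine; 10.9; chromosome 18, 36916150 to 36916292) and Sars1 (serine; 8.93; chromosome 3, 108352460 to 108352602). The last ranks 6623 of 7861 peaks, and the cytosolic class runs from percentile 13.5 to 88.2 of the list.

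Among mitochondrial enzymes the highest score was that of Pars2, the prolyl enzyme, at 20.3 (chromosome 4, 106508121 to 106508263, -74 bp). Sars2 (serine) scored 19.4 (chromosome 7, 28441228 to 28441370, -54 bp from Mrps12 and -98 bp from its own reference start) and Wars2 (tryptophan) 16.9 (chromosome 3, 99048316 to 99048458, -1 bp). Fars2, the phenylalanyl enzyme, scored 15.9. Its peak lies -47 bp from the start of Lyrm4, the nearest gene, and 161 bp downstream of the Fars2 reference start. No mitochondrial peak annotated to a member reached 20.8, the lowest of the 7 scores above. The lowest were Mars2 (methionine) at 10.4 (chromosome 1, 55276165 to 55276307, -100 bp), Yars2 (tyrosine) at 10.9 (chromosome 16, 16120765 to 16120907, -2 bp), and Hars2, which shares the Hars1 peak.

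The class medians differed little in position and somewhat more in rank. The median deposited distance, to the nearest start of any gene, was -43 bp for 15 cytosolic and -47 bp for 7 mitochondrial promoter peaks, against -49 bp for 5069 peaks at protein-coding genes. Distances ran from -136 to 37 bp in the cytosolic class and from -100 to 37 bp in the mitochondrial class, and by this measure 11 of 15 and 6 of 7 peaks lay upstream. The nearest start was another gene's at Cars1 (Gm15579), Eprs1 (4930532G15Rik), Fars2 (Lyrm4), Hars2 (Hars1) and Sars2 (Mrps12). From the members' own reference starts, counted after seeing the data, the median positions of the peak centres were 2 bp (range -95 to 299) and 12 bp (-100 to 433), and 7 of 15 and 3 of 7 lay upstream, against a median of -20 bp and 59.3% upstream for 5417 protein-coding genes. The sign of both class medians depended on the start site used. The median score percentile was 66.0 for cytosolic and 55.0 for mitochondrial peaks, with ranges of 13.5 to 88.2 and 25.2 to 70.7 that overlap. The 5069 peaks are the highest-scoring promoter peak of each protein-coding gene, the rule also used for members. Their median percentile was 62.6, so neither class median stands far from that of these peaks. With members at a shared start site left out, the median deposited distances were -61.5 and -2 bp, so the gap between the classes in distance depended on which members were counted.

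**Figure D2:**
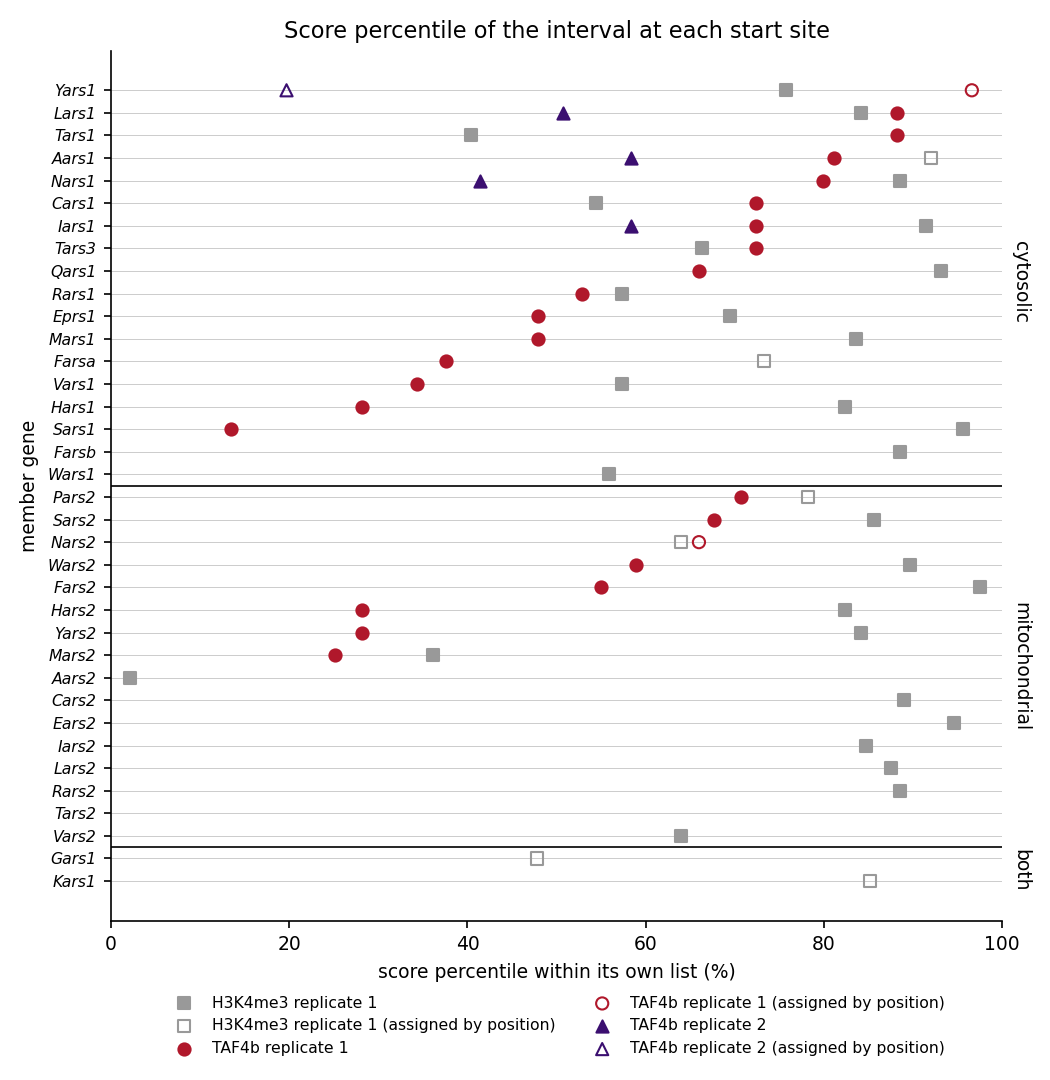
Score percentile (%, horizontal axis, 100 is the highest within a list) of the interval at the start site of each member (vertical axis), by class. Filled symbols are intervals that the deposited annotation gives to the member and open symbols those assigned by position; TAF4b replicate 1 circles span 13.5 to 96.6 in the cytosolic block and 25.2 to 70.7 in the mitochondrial block.

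The 4 member promoter peaks of TAF4b replicate 2 fell on promoters that also had a peak in replicate 1. A further member peak in that list, near the 3′ end of Lars2, is not a promoter peak (score 251.0, rank 15) and overlapped no replicate 1 peak. Aars1 and Iars1 each scored 64.8 there (chromosome 8, 111760348 to 111760536, -69 bp, and chromosome 13, 49835416 to 49835604, -66 bp). Lars1 scored 60.7 (chromosome 18, 42395166 to 42395354, -1 bp) and Nars1 56.7 (chromosome 18, 64649530 to 64649718, 2 bp). The list's median was 60.7, so the 4 promoter peaks are mid-ranking, at ranks 327 for the first pair, 382 and 456. Of the 21 member promoter peaks in replicate 1, 4 overlapped a replicate 2 peak, against 11.4% of the 5069 peaks at protein-coding genes. The 4 genes had replicate 1 scores of 20.8 to 28.3, and the 18 genes found in replicate 1 alone had 8.93 to 28.3, with medians of 24.1 and 14.9. Cars1, Tars1 and Tars3 scored at least 20.8 in replicate 1 and were not called in replicate 2.

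Every member TAF4b promoter peak lay inside H3K4me3-marked chromatin. All 21 replicate 1 peaks overlapped an H3K4me3 replicate 1 region, also when the region had to cover at least 50% of the peak. Over all 5069 peaks at protein-coding genes this share was 86.8%. For H3K4me3 replicate 2 the count was 2 of 21, at Iars1 and Tars3, against 8.48% of all 5069 peaks. The region at Iars1 scored 122.2 in replicate 1 (49835057 to 49836361) and 111.2 in replicate 2 (49835285 to 49835785), and that at Tars3 scored 64.1 and 106.1 (chromosome 7, 65294116 to 65295286 and 65294353 to 65294853). At Aars1, Farsa and Pars2 the peak lay in a region that the deposited annotation classes as exon or intron, with scores of 125.2, 74.5 and 83.5, because that class is set by the centre of a wide region.

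**Figure D3:**
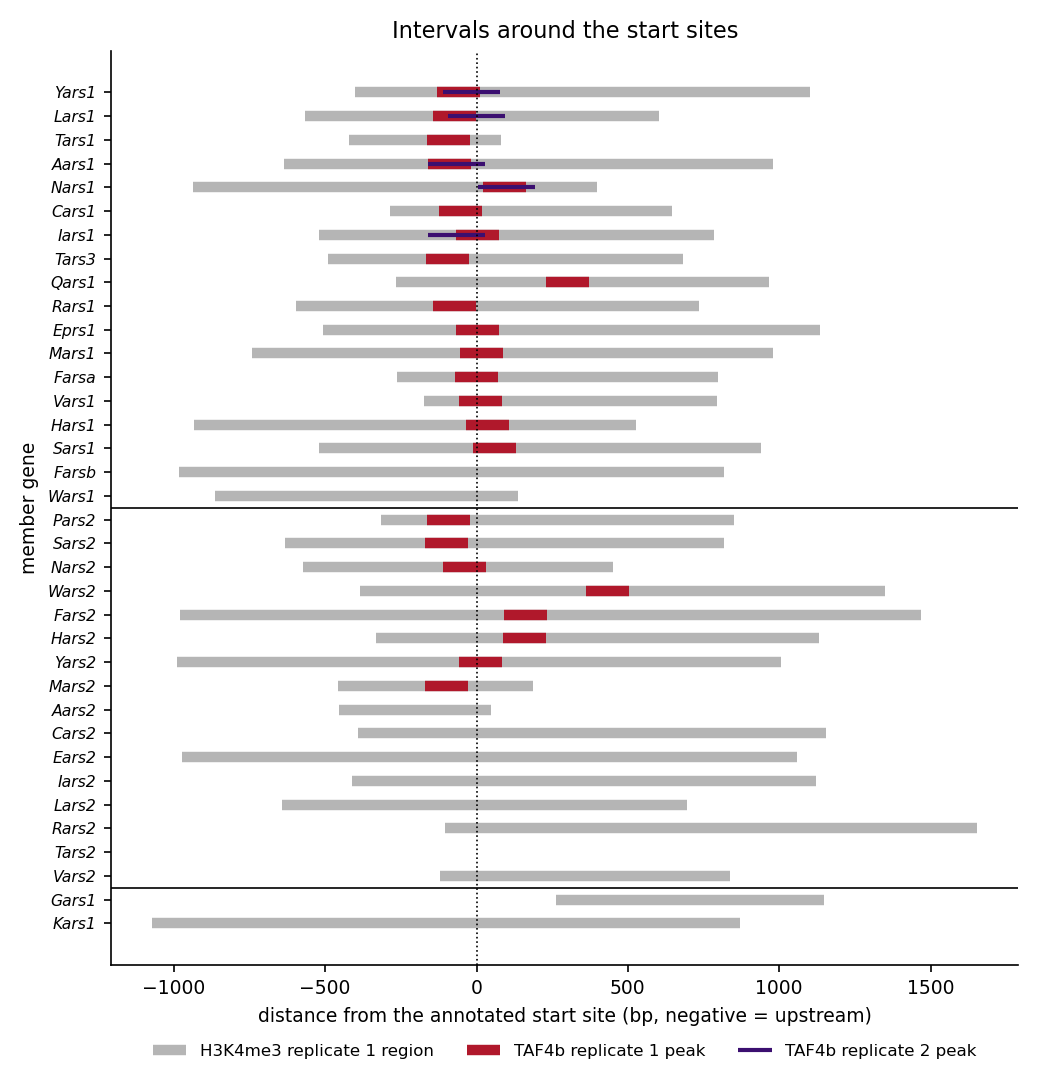
Extent of H3K4me3 replicate 1 regions (grey) and of TAF4b replicate 1 and 2 peaks (red, purple) around the reference start site of each member (horizontal axis, bp, negative is upstream). The TAF4b peaks sit within the grey bars, and the replicate 1 peaks of Nars1, Qars1, Fars2, Hars2 and Wars2 lie wholly downstream of the reference start, from which the deposited distances are not always counted.

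H3K4me3 scores of members with and without a TAF4b promoter peak overlapped. The median score percentile of the H3K4me3 replicate 1 promoter regions was 79.1 for cytosolic and 85.7 for mitochondrial enzymes, against 80.3 for all protein-coding genes, and the median widths were 1319, 1534 and 1351 bp. By the deposited assignment, the median percentile in the cytosolic class was 82.3 for 13 enzymes with a TAF4b replicate 1 promoter peak and 75.8 for 3 without one. Within the mitochondrial class it was 84.9 for 6 with and 87.6 for 7 without. Over all members it was 83.9 for 18 regions with such a peak (range 36.1 to 97.5) and 86.1 for 10 without (2.16 to 94.6). The Yars1 region, at percentile 75.8, was counted as without. It nevertheless overlaps a peak annotated to the neighbouring gene S100pbp in both TAF4b lists. The median deposited distance of the region, to the nearest start of any gene, was 14 bp with and 124.5 bp without. Over all protein-coding genes it was -21 bp. At Wars1 the deposited distance was 219 bp, with Wdr25 as the nearest gene, and the centre lay -362 bp from the member's own reference start. These medians were not computed from the members' own reference starts. Mitochondrial enzymes without a TAF4b promoter peak but with strong H3K4me3 were Ears2 (glutamate, score 140.1), Cars2 (cysteine, 111.8), Rars2 (arginine, 110.3), Lars2 (leucine, 107.3) and Iars2 (isoleucine, 98.4). Vars2 (valine) had 61.1. Aars2 (alanine) had a region of 19.4, near the lowest score in the list (16.4). In the cytosolic class, Farsb, the other subunit of the phenylalanyl enzyme, had an H3K4me3 region of 110.3, Yars1 (tyrosine) one of 79.0 and Wars1 (tryptophan) one of 52.2, with no TAF4b promoter peak assigned to them.

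Some of these gaps depend on which gene an interval at a shared promoter is given to. Yars1 starts 218 bp from S100pbp on the opposite strand. The TAF4b peak between them (chromosome 4, 129083424 to 129083566) is annotated to S100pbp and scored 37.7 in replicate 1, above every peak annotated to a member, and 48.6 in replicate 2. The Nars2 start site carried a peak of 18.9 (chromosome 7, 96600578 to 96600720) that is annotated to C230038L03Rik. When intervals were assigned by position, within 1000 bp of a start site, 24 of 36 members had a TAF4b peak in replicate 1, against 29.0% of all genes, and 5 in replicate 2, against 4.14%. The classes then stood at 16 of 18 and 8 of 16 in replicate 1, a difference of 38.9 percentage points, and at 5 of 18 and 0 of 16 in replicate 2. Among members with H3K4me3 by the same rule, 16 of 18 and 8 of 15 had the replicate 1 peak, against 39.5% of all such genes, and 5 of 18 and 0 of 15 had the replicate 2 peak, against 5.67%. H3K4me3 replicate 2 by position added Vars1, for 3 members against 7.31% of all genes.

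Hars1 and Hars2 start 197 bp apart on opposite strands and share 1 TAF4b peak and 1 H3K4me3 region (score 92.4), so their counts are not independent. The other members with an opposite coding start within 1000 bp were Kars1 (with Terf2ip, 3 bp), Yars1 (S100pbp, 218 bp), Wars1 (Wdr25, 98 bp), Sars2 (Mrps12, 129 bp), Fars2 (Lyrm4, 175 bp), Rars2 (Orc3, 302 bp), Vars1 (D17H6S56E-5, 306 bp) and Ears2 (Ubfd1, 451 bp). A TAF4b replicate 1 peak was assigned to 5 of these 10 members, against 48.6% of the 1924 genes with such a neighbour, and to 17 of the 26 others, against 22.6% of genes without one. In replicate 2 it was 0 of these 10 members, against 9.56% of such genes. At the shared promoters of Fars2 and Sars2 the peak's nearest start site is that of the partner. With members left out whose reference start faces that of another gene, coding or non-coding, 10 of 11 cytosolic and 3 of 8 mitochondrial enzymes had a replicate 1 peak, a difference of 53.4 percentage points. Of all genes without a facing reference start, 17.9% had one. Those 8 still include Nars2, whose partner starts there only by other transcripts. Leaving it out too, an alternative chosen after seeing the data, gave 10 of 11 and 3 of 7, a difference of 48.1 percentage points, against 17.0% of all genes without a facing start of any transcript.

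Cytosolic and mitochondrial members that charge the same amino acid were then set side by side, with Eprs1 set against Ears2 and Farsa against Fars2. The TAF4b replicate 1 share over all genes was 24.9%, and 29.0% by position. Among these 15 pairs in TAF4b replicate 1, both enzymes had a peak in 4 (Farsa/Fars2, Hars1/Hars2, Mars1/Mars2 and Sars1/Sars2), the cytosolic enzyme alone in 9, and the mitochondrial enzyme alone in 2 (Wars1/Wars2 and Yars1/Yars2). There was no pair without a peak. By position the counts were 6, 8, 1 and 0, with tryptophan the single pair in which the mitochondrial enzyme alone had a peak. Farsb, the other subunit of the cytosolic phenylalanyl enzyme, had no TAF4b peak by either rule. A pairing of Fars2 with Farsb would thus have counted as the mitochondrial enzyme alone. Eprs1 also charges proline, and its pairing with Pars2, which had a replicate 1 peak, would have counted as both. In replicate 2 no pair had a peak at the promoter of its mitochondrial enzyme by either rule.

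Gars1 and Kars1, which supply glycyl- and lysyl-tRNA synthetase to both compartments, had no TAF4b promoter peak in either list. By position, Kars1 had an H3K4me3 region of 99.9 that is annotated to Terf2ip, whose start is 3 bp away. Gars1 had one of 44.7, classed as intron and centred 705 bp downstream of its reference start (deposited distance 657 bp). Counting them as cytosolic lowered the class difference to 31.2 percentage points in replicate 1.

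Over the 4 libraries, the share of members with a promoter interval varied more between replicates than between antibodies. It was 61.1% and 11.1% for TAF4b, a mean of 36.1% ± 35.4 (SD, n = 2), and 80.6% and 5.56% for H3K4me3, a mean of 43.1% ± 53.0 (SD, n = 2). Over all protein-coding genes the shares were 24.9% and 3.55% for TAF4b and 48.6% and 4.78% for H3K4me3, so they too followed the list. The members' difference of -6.94 percentage points was smaller than the spread between replicates (exact two-sided permutation p = 1.0, where 2 libraries against 2 cannot give less than 0.333). Within replicate 1 the difference was -19.4 and within replicate 2 it was 5.56 percentage points, so its sign followed the replicate.

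Further groupings of the members were described by their counts. Of 7 members of the multi-synthetase complex (Eprs1, Iars1, Lars1, Mars1, Qars1, Rars1 and Kars1), 6 carried a TAF4b peak at the promoter in replicate 1, against 24.9% of all genes, Kars1 being the exception. Iars1 and Lars1 had one in replicate 2, against 3.55%. Of 13 members listed as ATF4 targets, 10 had a promoter peak in replicate 1 and 4 in replicate 2, against the same backgrounds. Of the 6 cytosolic enzymes outside that list the counts were 5 and 0. All 4 genes with a replicate 2 promoter peak are thus in the ATF4 list, which holds all but 6 of the 18 cytosolic enzymes. In replicate 1 the shares were 76.9% for the list and 83.3% for the cytosolic enzymes outside it. No test was made of these counts.

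Other genes of the pathway that are not members were called near the background rate in TAF4b replicate 1, but not in H3K4me3 replicate 1. Of 13 such genes, 3 had a TAF4b promoter peak (23.1%, against 24.9% of all genes). They were Eef1e1, a scaffold of the multi-synthetase complex, Gatb, a subunit of the mitochondrial glutaminyl amidotransferase, and Dtd1, which removes D-amino acids from mischarged tRNA. In replicate 2 the count was 0 of 13, against 3.55%, and 10 had an H3K4me3 replicate 1 promoter region, against 48.6%. By position the TAF4b counts were 4 and 1, against 29.0% and 4.14%, adding the scaffold gene Aimp2 in both lists.

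Promoter sequence differed between the classes in the share of windows with an ETS match. Windows of 300 bp, from 250 bp before to 50 bp after the reference start, were searched on both strands for 8 consensus sequences, and in the member windows no match overlapped a match to another. The ETS consensus (CCGGAAG) was found in 15 of 36 member windows (41.7%): 10 of 18 cytosolic, 3 of 16 mitochondrial, and Gars1 and Kars1. It was found in 10.3% of all protein-coding genes and in 18.5% of genes with a TAF4b replicate 1 promoter peak. Among members it was present at 11 of 22 with such a peak and at 4 of 14 without one. The CCAAT box (8 and 8 members), the GC box (9 and 9), NRF1 (1 and 3) and the TATA box (2 and 3) had higher shares among the 14 members without a peak, and YY1 (3 and 1), the E box (3 and 1) and the C/EBP-ATF element (4 and 1) among the 22 with one. The nearest split over all genes set those with a TAF4b replicate 1 peak against those with an H3K4me3 replicate 1 region and no such peak, a narrower group than the 14 members. There the ETS share was 18.5% against 11.7%. For the CCAAT box it was 45.1% against 36.5%, for the GC box 64.8% against 53.9% and for NRF1 7.85% against 4.89%, the opposite order to the members. The C/EBP-ATF shares, 2.22% against 2.35%, were nearly equal and also in the opposite order to the members. The other shares were 7.11% against 5.33% for YY1, 11.9% against 8.46% for the E box and 7.37% against 7.96% for the TATA box. None of these differences was tested. The cytosolic genes were Cars1, Farsa, Hars1, Lars1, Mars1, Nars1, Rars1, Sars1, Wars1 and Yars1.

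The C/EBP-ATF response element (TGATGNAA), which ATF4 dimers are known to bind, was found at Aars1, Cars1, Iars1, Tars1 and Gars1, which is 4 of 18 cytosolic and 0 of 16 mitochondrial windows, against 3.85% of all genes. The E box (CACGTG) was found at Aars1, Farsb, Iars1 and Tars1, again 4 and 0, against 7.82%. The CCAAT box (CCAAT) was found in 6 cytosolic and 9 mitochondrial windows, against 39.9% of all genes, and the GC box (GGGCGG) in 7 and 9, against 42.5%. For the NRF1 (GCATGCG) and YY1 (AAGATGG) consensus the counts were 1 and 3 each, against 4.69% and 5.74%. The TATA box (TATAAA) was found in 2 and 3, against 13.2%. Median GC content of the windows was 55.5% for cytosolic and 56.0% for mitochondrial enzymes, against 54.3% for all genes. A match is a description of letters in this window and says nothing of binding.

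**Figure D4:**
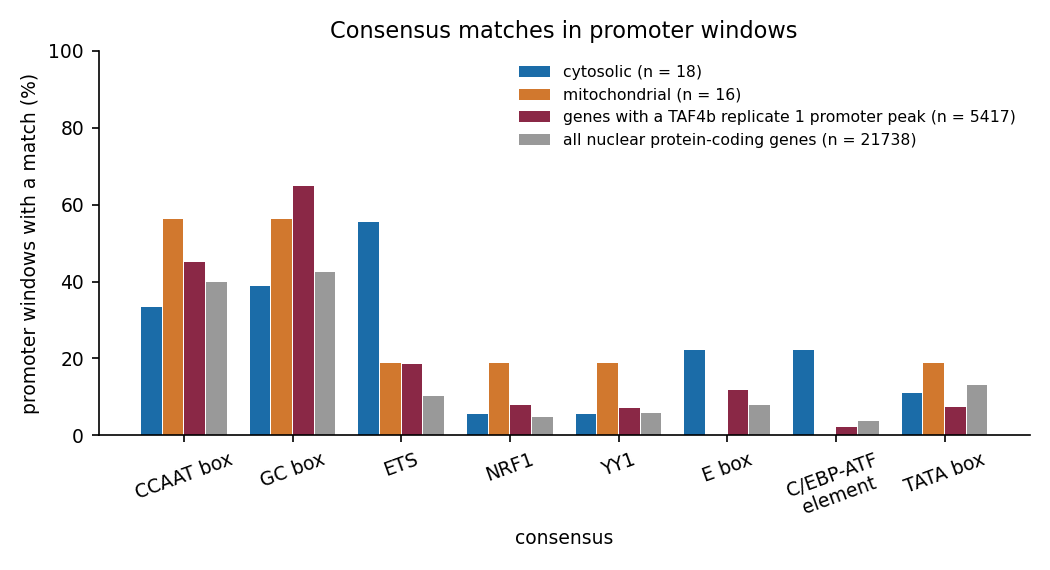
Share of 300 bp promoter windows (%, vertical axis) with a match to each of 8 consensus sequences (horizontal axis), for cytosolic enzymes, mitochondrial enzymes, genes with a TAF4b replicate 1 promoter peak and all protein-coding genes. The ETS bars stand at 55.6%, 18.8%, 18.5% and 10.3%, in that order.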

How the data were processed

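CUT&RUN lists of 4 libraries were analysed; the 2 IgG libraries were not analysed here. Per the submitters' processing notes, reads were processed with bcl2fastq 2.20, Trim Galore 0.5.0, FastQC 0.11.5, Bowtie2 2.3.0, SAMtools 1.9 and HOMER 4.10 on GRCm39. Per the file headers, H3K4me3 regions were annotated with HOMER annotatePeaks and Ensembl 103. The TAF4b lists name no build and were read as GRCm39. Peak calling settings and the scale of the score are not given in the sources used here. The deposited peak score, and the focus ratio that the TAF4b lists give as a fraction (deposited, not reported here), are the authors' values per library; replicates were not pooled.

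Transcripts were matched to GENCODE M39 (98.6% to 99.2% of nearest transcripts). A gene was called when a promoter-TSS interval named it in either the annotation or the nearest-promoter column. The alternatives were a 1000 bp window, assignment by position, the higher-scoring 50%, equal numbers of intervals, moving the enzymes of both compartments and leaving out shared start sites. Shared bases were counted with a minimum of 1 bp. Other genomic copies were searched with BLAST 2.17.0, and statistics used Python 3.11.15 and scipy 1.17.1. The assignment was tested on simulated data. All 36 members were given; intervals are printed for members called in TAF4b replicate 2 and for the 3 highest and 3 lowest scores of each class. Members, gene lists and consensus sequences were chosen with earlier results of these data known. Some genes of the pathway list are not reported here.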

Additional observations from a re-analysis of the deposited data

How the results depend on the processing

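Of 61 alternative values, 43 were counted as kept, 14 as moved and 4 as changed in sign. Kept means within 1.5 times for a count, within the SD between the 2 TAF4b replicates for a class difference or median (the cytosolic SD for both classes), and the same sign for the antibody difference, whose kept values still ran from -6.94 to -19.4 percentage points. Counted from the members' own reference starts, a choice made after seeing the data, the median distances changed sign to 2 bp (cytosolic) and 12 bp (mitochondrial). Keeping the higher-scoring 50% of each list left 13 members with a TAF4b replicate 1 promoter peak, 12 of their peaks in an H3K4me3 region, 0 members in H3K4me3 replicate 2, a class difference of 25.0 percentage points, a cytosolic median distance of -72 bp and a mitochondrial median percentile of 63.3. With equal numbers of intervals, by the deposited assignment, the counts were 0 for TAF4b and 1 for H3K4me3 in replicate 1. The class difference was then 0, the TAF4b minus H3K4me3 share changed sign to 1.39 percentage points, and no median distance could be given. Fewer intervals tested is what these settings change. Leaving out members at a shared start site moved the class difference to 53.4 percentage points and the median distances to -61.5 bp (cytosolic) and -2 bp (mitochondrial); the cause was not tested. Counting partner starts of any transcript, a choice made after seeing the data, also left out Nars2 and gave 48.1 percentage points, -61.5 bp and -2 bp. The antibody difference ranged from -19.4 to 5.56 percentage points when 1 replicate was left out. As a replicate block it was -6.94 percentage points (exact sign-flip p = 1.0, where 2 pairs cannot give less than 0.5); the labels do not say that equal numbers share cells. Replicate 2 lists are far shorter, depth is unknown, and a promoter without a called interval is not shown to lack the protein or mark.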

Other observations

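Of the member intervals outside promoters, 2 were TAF4b replicate 1 peaks, 1 was a TAF4b replicate 2 peak, 26 were H3K4me3 replicate 1 regions and 1 was an H3K4me3 replicate 2 region. TAF4b replicate 2 held a peak near the 3′ end of Lars2 (chromosome 9, 123290960 to 123291148) with a score of 251.0, ranked 15 of 848 and above every other member peak in that list. No interval of TAF4b replicate 1 or H3K4me3 replicate 1 overlapped it. Its bases matched 7 other places on 6 chromosomes at an identity of at least 90% over at least 100 bp. No other member TAF4b interval had such a match. The part of repeated sequence in this peak was not tested.

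A TAF4b replicate 1 peak that the deposited annotation places in an intron of Fars2 (chromosome 13, 36762643 to 36762785, score 17.4) lay in an H3K4me3 region of 165.5, and its nearest promoter is that of Gm48767. A TAF4b replicate 1 peak upstream of Gars1 (chromosome 6, 54995495 to 54995637, score 12.4, deposited distance -19426 bp) lay in an H3K4me3 region of 59.6. It is the one TAF4b interval assigned to Gars1. The highest H3K4me3 score among member intervals outside promoters, 201.2, belonged to a region of 2524 bp annotated to a Wars2 intron, with Tbx15 as the nearest gene.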
